A study of Mus musculus with 6 samples.

Results

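This report covers the genes that write, oxidise and metabolically support cytosine methylation in mouse hematopoietic stem cells (HSCs): the DNA methyltransferases *Dnmt1*, *Dnmt3a* and *Dnmt3b*, the TET dioxygenases *Tet1*, *Tet2* and *Tet3*, and the isocitrate dehydrogenases *Idh1* and *Idh2*. Members were chosen by gene symbol, and all 8 were found among the 26264 genes of the table. Bulk RNA-seq was done on HSCs of 6 untreated female mice, 8 weeks old, of which 3 were wild-type (WT) and 3 *Irf1-/-*, with 1 library per mouse. The *Irf1-/-* mice (B6.129S2-Irf1 tm1Mak/J, labelled IRF1 KO) lack IRF1 in the whole body, so the niche and the mature blood cells were mutant too, and the WT mice were C57Bl/6. Libraries are named by the replicate numbers 2, 3 and 4 that the labels give in each genotype. The labels do not say whether a shared number links a WT mouse to an *Irf1-/-* mouse, and the main test treated the mice as unpaired. Between 43138521 and 59658080 reads per library fell on genes.

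DNMT1 copies methylation onto the new strand behind the replication fork, whereas DNMT3A and DNMT3B place methyl groups on unmethylated DNA. The TET enzymes oxidise 5-methylcytosine in a reaction that consumes 2-oxoglutarate, which IDH1 makes in the cytosol and IDH2 in mitochondria. DNMT3A, TET2, IDH1 and IDH2 are among the proteins most often mutated in clonal hematopoiesis and myeloid leukemia.

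Reads on *Irf1*, the targeted gene, remained in the knockout. Normalized counts were 10122, 11120 and 12057.5 in WT replicates 2, 3 and 4, and 9267, 9524 and 9287 in the *Irf1-/-* replicates. Every *Irf1-/-* library lay below every WT library, but the *Irf1-/-* mean was still 84.3% of the WT mean. The counts per gene do not show which part of the transcript these reads came from, so the level of *Irf1* alone does not check the labels.

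The HSC markers used in sorting were present in all libraries. *Kit* had between 77902 and 88715 normalized counts, *Slamf1*, which encodes CD150, between 2848 and 3823, and *Ly6a*, which encodes Sca-1, between 4974 and 7692. The levels of *Slamf1* and *Ly6a* did not overlap between the genotypes. *Slamf1* was higher in all *Irf1-/-* libraries (log2 fold change 0.24, limma adjusted *P* = 0.217). *Ly6a* had 6908, 7439 and 7692 in WT replicates 2, 3 and 4 and 4974, 6047 and 5376 in the *Irf1-/-* replicates, with an adjusted *P* under 0.05 and a fold change under the threshold on size used below (log2 fold change −0.43, limma adjusted *P* = 0.0245). *Cd48*, whose protein is absent from sorted HSCs, had between 257 and 431. The 4 listed hemoglobin genes, *Hba-a1*, *Hba-a2*, *Hbb-bs* and *Hbb-bt*, were listed at 0 in all 6 libraries, and *Cd8a* did not exceed 2.59. WT replicate 4 stood apart in transcripts of mature granulocytes. *Ngp* had 2535 normalized counts there and between 24.8 and 126.6 in the other 5 libraries, and *S100a9* had 1246 there and at most 130.8 elsewhere. Summed over 10 granulocyte and monocyte markers, of which *Prtn3* was the most abundant, the levels were 6814, 5569 and 12601 in WT replicates 2, 3 and 4 and 8418, 8538.5 and 10910 in the *Irf1-/-* replicates. *Prtn3* itself was higher in all *Irf1-/-* libraries (log2 fold change 0.53, limma adjusted *P* = 0.0334). Other marker lists moved with genotype. All 6 megakaryocyte markers had a lower mean in *Irf1-/-* HSCs and limma called 3 of them, *Pf4*, *Gp1bb* and *Gp5*. Calls on this list fell to 2 without any 1 of WT replicates 2 and 3 and *Irf1-/-* replicates 2 and 3, and rose to 4 without WT replicate 4. Their summed level, mostly *Itga2b*, was 52513, 66823 and 49507 in WT replicates 2, 3 and 4 and 44141, 27462 and 39541 in the *Irf1-/-* replicates. Of the 4 erythroid markers tested, limma called *Klf1* and *Car1* lower, but *Car1* was not called by edgeR (adjusted *P* = 0.0887) or DESeq2 (adjusted *P* = 0.202), and neither gene without *Irf1-/-* replicate 3. Only 1 erythroid marker was called in limma without any 1 of WT replicates 2 and 3 and *Irf1-/-* replicates 2 and 4. Of 6 markers of stroma and endothelium 5 had a higher mean. Their summed level, mostly *Pecam1*, was 4905, 4784 and 5390 in WT replicates 2, 3 and 4 and 6564, 6144 and 7113 in the *Irf1-/-* replicates. None was called in the main fit, and *Emcn* came nearest (log2 fold change 0.58, just under the threshold before rounding, limma adjusted *P* = 0.0101). Leaving out any 1 of WT replicates 2 and 3 and *Irf1-/-* replicates 2 and 4 gave 1 call on this list, as did quantile normalization. Of 10 HSC markers 8 had a higher mean and *Fgd5* was called, as was *Flt3* of the progenitor markers, which was not called in 4 of the 6 fits without 1 library. Without the trend in limma's prior variance none of these markers was called. The part of these differences in the results below was not tested.

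Differences between the genotypes were tested with limma, after adding 1 to each normalized count and taking log2. The test took in 17404 genes whose mean normalized count reached 10, and all 8 members were among them. Genes counted as called when their adjusted *P* was below 0.05 (Benjamini-Hochberg, all tested genes) and their log2 fold change exceeded 0.58 in size. Fold changes are on this log2 scale, where the added 1 weighs most on genes with low counts, and a negative one means lower in *Irf1-/-* HSCs. None of the 8 members was called, against 1.91% of all tested genes (0 of 8 with edgeR and 0 of 8 with DESeq2 on the recovered reads as well). At an unadjusted *P* under 0.05, limma counted 2 members, *Dnmt1* and *Tet1*, against 16.5% of all tested genes, and edgeR and DESeq2 counted 3 each. Of the 8 members, 7 had a lower mean in *Irf1-/-* HSCs on the log2 scale, and the groups did not overlap for 3 of them, *Dnmt1*, *Tet1* and *Idh2*, all lower in *Irf1-/-* HSCs. Non-overlap in that direction held for 9.27% of all tested genes. The median log2 fold change of the members was −0.13 (−0.085 without *Irf1-/-* replicate 3), and that of all tested genes was −0.0028.

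*Dnmt1*, the maintenance methyltransferase, had 29765, 31023 and 25989 normalized counts in WT replicates 2, 3 and 4. In *Irf1-/-* HSCs it had 24297, 24614 and 19648. The highest *Irf1-/-* library stayed below the lowest WT library, WT replicate 4, and *Irf1-/-* replicate 4 was the lowest of all. On average *Irf1-/-* HSCs had 79.0% of the WT level (log2 fold change −0.34, SE 0.107, 95% interval −0.57 to −0.11, limma adjusted *P* = 0.106). With no threshold on the fold change, 3.22% of all tested genes and none of the members had an adjusted *P* under 0.05 in limma. *Dnmt1* did pass that threshold in DESeq2 (adjusted *P* = 0.0266) and in limma without WT replicate 4 (log2 fold change −0.42, adjusted *P* = 0.0361). Without *Irf1-/-* replicate 4 the log2 fold change was −0.24 (limma adjusted *P* = 0.485).

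The de novo enzymes differed less. *Dnmt3a* had 6632, 7647 and 7308 normalized counts in WT replicates 2, 3 and 4 and 7010, 5976 and 6732 in the *Irf1-/-* replicates. The groups overlapped, with *Irf1-/-* replicate 3 lowest and *Irf1-/-* replicate 2 above WT replicate 2. The log2 fold change was −0.13 (SE 0.093, 95% interval −0.33 to 0.069, limma adjusted *P* = 0.559), and −0.064 without *Irf1-/-* replicate 3. *Dnmt3b* had 7554, 7631 and 7042 in WT and 7435, 6742 and 6599 in *Irf1-/-* HSCs. Here *Irf1-/-* replicate 2 reached into the WT range, while the other 2 *Irf1-/-* libraries lay below it. *Dnmt3b* had a log2 fold change of −0.098 (SE 0.086, 95% interval −0.28 to 0.087, limma adjusted *P* = 0.656), which was −0.15 without *Irf1-/-* replicate 2 and −0.056 under quantile normalization. For both genes the interval includes 0 and excludes a halving or a doubling of the level.

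Among the TET genes, *Tet1* differed most. It had 2107, 1783 and 2012 normalized counts in WT replicates 2, 3 and 4 and 1733, 1226 and 1574 in the *Irf1-/-* replicates. All *Irf1-/-* libraries lay below all WT libraries, although *Irf1-/-* replicate 2 came close to WT replicate 3. On average *Irf1-/-* HSCs had 76.8% of the WT level (log2 fold change −0.39, SE 0.133, 95% interval −0.68 to −0.11, limma adjusted *P* = 0.141). The log2 fold change was −0.25 without *Irf1-/-* replicate 3, the lowest library.

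*Tet2*, the TET gene most often mutated in myeloid disease, had 1521, 1317 and 1276 normalized counts in WT replicates 2, 3 and 4 and 1648, 1187 and 1338 in the *Irf1-/-* replicates. The highest and the lowest library were both *Irf1-/-*, so the groups overlapped fully. *Tet2* had a log2 fold change of 0.012 (SE 0.135, 95% interval −0.28 to 0.30, limma adjusted *P* = 0.983), and its sign turned under median centring (−0.019). *Tet3* had 1521, 1462 and 1538 in WT and 1568, 1121 and 1496 in *Irf1-/-* HSCs. Of its 6 libraries, 5 lay within a narrow range and *Irf1-/-* replicate 3 was lower. For *Tet3* the log2 fold change was −0.13 (SE 0.132, 95% interval −0.41 to 0.16, limma adjusted *P* = 0.721), and without *Irf1-/-* replicate 3 it was 0.024.

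Of *Idh1* and *Idh2*, only *Idh2* had groups without overlap. *Idh2*, the mitochondrial enzyme, had 22245, 23326 and 21967 normalized counts in WT replicates 2, 3 and 4 and 19775, 20393 and 20000.1 in the *Irf1-/-* replicates. Each *Irf1-/-* library lay below each WT library, at 89.1% of the WT level on average, with a small spread in each genotype. The log2 fold change of *Idh2* was −0.17 (SE 0.081, 95% interval −0.34 to 0.0071, limma adjusted *P* = 0.329), and −0.11 under quantile normalization. *Idh1*, the cytosolic enzyme, had 4512, 3949 and 3593 in WT and 3514, 4315 and 4018 in *Irf1-/-* HSCs. The libraries of both genotypes were spread over the same range. The log2 fold change of *Idh1* was −0.024 (SE 0.109, 95% interval −0.26 to 0.21, limma adjusted *P* = 0.953), and its sign turned under quantile normalization (0.015).

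Levels of different genes were compared as normalized counts per kilobase of the longest coding transcript (GENCODE vM1). In WT HSCs *Idh2* was highest, with a level of 12577 ± 401 per kilobase (SD, n = 3). *Dnmt1* followed with 5495 ± 498 per kilobase. *Idh1* (1745 ± 201 per kilobase) and *Dnmt3b* (1715 ± 74.0) did not differ beyond their spread. *Dnmt3a* had a level of 743 ± 53.4 per kilobase, below *Dnmt3b* in every WT library. That order rests on the lengths used, 9685 bases for *Dnmt3a* and 4320 for *Dnmt3b*. Before division by length, the log2 ratio of *Dnmt3a* to *Dnmt3b* was −0.19, 0.0032 and 0.053 in WT replicates 2, 3 and 4. Which transcripts of these genes the HSCs express was not examined. The TET genes were the lowest, at 149 ± 14.3 per kilobase for *Tet2*, 138 ± 3.69 for *Tet3* and 136.9 ± 11.6 for *Tet1*, and these 3 did not differ beyond their spread. In *Irf1-/-* HSCs the order of the members was the same, at 11204 ± 175 per kilobase for *Idh2*, 4341 ± 528 for *Dnmt1*, 1715 ± 176 for *Idh1*, 1603 ± 103 for *Dnmt3b*, 679 ± 55.2 for *Dnmt3a*, 152 ± 25.6 for *Tet2*, 128 ± 22.0 for *Tet3* and 105 ± 18.0 for *Tet1*. It was also the same in WT HSCs when the length of all exons joined was used (16642 bases for *Dnmt3a* and 5106 for *Dnmt3b*).

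Ratios between members of 1 library do not depend on the scaling between libraries, and 5 were compared by exact permutation (two-sided), which with 3 mice per genotype gives no *P* below 0.1. The log2 ratio of the normalized counts of *Tet1* to *Tet2* was 0.47, 0.44 and 0.66 in WT replicates 2, 3 and 4 and 0.073, 0.046 and 0.23 in the *Irf1-/-* replicates. The *Irf1-/-* libraries all lay below the WT libraries, a difference of −0.40 (exact permutation *P* = 0.1, adjusted *P* = 0.375 over the 5 ratios). Of the summed TET level per kilobase, *Tet1* made up 32.2 ± 1.23% (SD, n = 3) in WT and 27.3 ± 0.53% in *Irf1-/-* HSCs. The other 4 log2 ratios overlapped between the groups, with differences of −0.21 for *Dnmt1* to *Dnmt3a*, −0.033 for *Dnmt3a* to *Dnmt3b*, 0.14 for *Tet2* to *Tet3* and 0.14 for *Idh1* to *Idh2* (exact permutation *P* between 0.3 and 0.8). With 1 library left out they ran from −0.34 to −0.088, from −0.10 to 0.016, from 0.073 to 0.22 and from 0.082 to 0.24, in the same order.

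The members did not vary as 1 group across the 6 libraries. On the log2 scale *Dnmt1* went with *Idh2* (Pearson r = 0.85, n = 6 libraries) and with *Dnmt3b* (0.84), and *Tet1* with *Tet3* (0.85). *Dnmt1* and *Tet2* were nearly unrelated (r = 0.095), and *Idh1* ran against *Dnmt3a* (−0.61). These coefficients describe 6 libraries that also differ in genotype.

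Among 12068 other tested genes whose mean normalized count reached 100, those most like each member over the 6 libraries were found by Pearson r of log2 values. For *Dnmt1* they were *Rrm1*, the large subunit of ribonucleotide reductase (r = 0.997), the helicase gene *Rtel1* (0.996) and *Dscc1*, which encodes a subunit of a clamp loader at the replication fork (0.996). *Rrm1* had 22036, 22955 and 18091 normalized counts in WT replicates 2, 3 and 4 and 16788, 17281 and 13463 in the *Irf1-/-* replicates, so its libraries fell in the same order as those of *Dnmt1*. *Dnmt3b* was most like *Clca3a1* (0.993), *Eif5a2* (0.991) and *Ccnf*, which encodes cyclin F (0.991). *Dnmt3a* was most like *Slc35d3* (0.999), *Zyg11b* (0.990) and *Btk* (0.983).

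For the TET genes the most similar were *Adgrl1* (0.979), *Braf* (0.979) and *Xiap* (0.973) for *Tet1*, *Zfp976* (0.978), *Scamp5* (0.972) and *Gpatch11* (0.969) for *Tet2*, and *Hectd4* (0.993), *H2-T-ps* (0.987) and *Xist* (0.982) for *Tet3*. *Idh1* was most like *Acyp2* (0.991), *Pex14* (0.983) and *5830432E09Rik* (0.983). *Idh2* was most like *Cmpk1* (0.999) and *Hdgf* (0.998). The number of genes with r above 0.9 was 679 for *Idh2* and 548 for *Dnmt1*, but only 42 for *Tet2*. With 6 libraries and this many genes, high coefficients occur for any pattern.

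The partners of the methyltransferases were examined next. For this list and the later ones, the shares over all tested genes were 50.4% lower and 16.5% at an unadjusted *P* under 0.05 in limma. All *Irf1-/-* libraries lay below all WT libraries for 9.27%. Of 13 listed genes 12 were tested, of which 8 were lower and 4 higher in *Irf1-/-* HSCs. The median log2 fold change was −0.13, and limma called none (3 at an unadjusted *P* under 0.05, 0 called by edgeR and 0 by DESeq2). Those 3 genes all encode partners in maintenance. *Uhrf1*, which brings DNMT1 to hemimethylated DNA, had 17202, 19511 and 13408 normalized counts in WT replicates 2, 3 and 4 and 13375.5, 11891 and 10252 in the *Irf1-/-* replicates. The groups did not overlap, but WT replicate 4 and *Irf1-/-* replicate 2 were almost level. *Uhrf1* had a log2 fold change of −0.49 (SE 0.130, 95% interval −0.77 to −0.21, limma adjusted *P* = 0.0609) and was called without WT replicate 4 (−0.64, limma adjusted *P* = 0.00721). In the other 5 fits without 1 library its adjusted *P* in limma was above 0.05 and at most 0.278, and the smallest log2 fold change was −0.37. DESeq2 gave *Uhrf1* an adjusted *P* of 0.00447. *Hells*, a chromatin remodeller needed for DNA methylation, had a log2 fold change of −0.38 (SE 0.128, limma adjusted *P* = 0.138, DESeq2 adjusted *P* = 0.0425), and *Cdca7*, which recruits it, of −0.29 (SE 0.107, limma adjusted *P* = 0.173, DESeq2 adjusted *P* = 0.0632). Both had all *Irf1-/-* libraries below all WT libraries. Over the 6 fits without 1 library, the adjusted *P* in limma ran from 0.0172 to 0.439 for *Hells* and from 0.0336 to 0.514 for *Cdca7*, and was under 0.05 only without WT replicate 4. The log2 fold change ran from −0.52 to −0.28 for *Hells* and from −0.39 to −0.18 for *Cdca7*. *Uhrf2*, the paralog of *Uhrf1*, lay on the other side, with a log2 fold change of 0.16 (SE 0.085, limma adjusted *P* = 0.404). It was singled out after its values were seen.

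Genes of DNA replication and the cell cycle were lower throughout. All 28 tested genes had a lower mean in *Irf1-/-* HSCs and an unadjusted *P* under 0.05 in limma. Of all tested genes 50.4% were lower, and 8.07% were lower with an unadjusted *P* under 0.05. The median log2 fold change of the 28 genes was −0.50. With 1 library left out it ran from −0.60 (without WT replicate 4) to −0.34 (without *Irf1-/-* replicate 4), and all 28 stayed lower. An unadjusted *P* under 0.05 then held for 20 to 28 genes, and for 15 without the trend in limma's prior variance. Only 3 were called, *Top2a* (log2 fold change −0.77, SE 0.158, limma adjusted *P* = 0.0177), *Mki67* (−0.67, SE 0.166, adjusted *P* = 0.0427) and *Aurkb* (−0.63, SE 0.152, adjusted *P* = 0.0368). edgeR called 3 and DESeq2 5. At any fold, 6 of the 28 had an adjusted *P* under 0.05 in limma, 7 in edgeR and 22 in DESeq2. *Top2a*, which encodes the topoisomerase that untangles replicated chromosomes, had 13177, 12859 and 9810 normalized counts in WT replicates 2, 3 and 4 and 7874, 8285 and 5166 in the *Irf1-/-* replicates. As for *Dnmt1*, WT replicate 4 was the lowest WT library and *Irf1-/-* replicate 4 the lowest of all. No gene of the list was called without WT replicate 2, without WT replicate 3, without *Irf1-/-* replicate 4, or without the trend in limma's prior variance, while 12 were called without WT replicate 4 and 6 without *Irf1-/-* replicate 3. In bulk RNA a smaller share of cycling cells and less of these transcripts in each cell cannot be told apart, and the part of either in the levels of *Dnmt1* and *Uhrf1* was not tested.

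The genes that supply the methyl group had both directions. Of 22 listed genes 20 were tested, 15 lower and 5 higher (median log2 fold change −0.15, and −0.085 without WT replicate 3), with none called by limma, 0 by edgeR and 1 by DESeq2, and 8 at an unadjusted *P* under 0.05 in limma. *Ahcy* and *Tyms* had an adjusted *P* under 0.05 with a fold change under the threshold on size. *Ahcy*, whose enzyme removes the inhibitory product of methyl transfer, had 3849, 4118 and 3838 normalized counts in WT replicates 2, 3 and 4 and 3111, 3137 and 2960 in the *Irf1-/-* replicates. The gap between the groups was wider than the range within either of them. The log2 fold change of *Ahcy* was −0.36 (SE 0.088, 95% interval −0.55 to −0.17, limma adjusted *P* = 0.0422). *Tyms*, which encodes thymidylate synthase, had a log2 fold change of −0.46 (SE 0.113, limma adjusted *P* = 0.0422). Over the 6 fits without 1 library, the adjusted *P* in limma ran from 0.0378 to 0.201 for *Ahcy* and from 0.0152 to 0.218 for *Tyms*. In both genes it was under 0.05 only without WT replicate 4.

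Around the isocitrate dehydrogenases, 27 genes of 2-oxoglutarate supply and use were tested. Of these, 22 were lower and 5 higher (median log2 fold change −0.15, and −0.086 without WT replicate 3), with 0 called by limma, edgeR or DESeq2 and 10 at an unadjusted *P* under 0.05 in limma. *Psat1*, a serine synthesis enzyme that yields 2-oxoglutarate, came nearest to a call. It had 6742, 7432 and 6463 normalized counts in WT replicates 2, 3 and 4 and 4633, 5193 and 4124 in the *Irf1-/-* replicates, which is 67.6% of the WT mean. Its log2 fold change of −0.57 (SE 0.101, 95% interval −0.79 to −0.35, limma adjusted *P* = 0.00720) fell just short of the threshold on size, which it passed in 3 of the 6 fits that left out 1 library (without WT replicate 2, WT replicate 4 or *Irf1-/-* replicate 3). In all 6 its adjusted *P* in limma stayed under 0.05 (at most 0.0475), but without the trend in the prior variance it was 0.212. *Got2* had a log2 fold change of −0.37 (SE 0.095, limma adjusted *P* = 0.0512, edgeR 0.0449, DESeq2 0.00628) and *Idh3a*, a subunit of the NAD-dependent isocitrate dehydrogenase, of −0.36 (SE 0.102, limma adjusted *P* = 0.0778, DESeq2 0.0167). In both, the *Irf1-/-* libraries lay below the WT libraries. With 1 library left out, the adjusted *P* in limma ran from 0.0143 to 0.234 for *Got2* and from 0.0173 to 0.297 for *Idh3a*, in each case lowest without WT replicate 4.

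The remaining lists gave no call in limma, edgeR or DESeq2. Of 12 genes for base excision of oxidised methylcytosine, 8 were lower and 4 higher (median log2 fold change −0.099), with 3 at an unadjusted *P* under 0.05. With 1 library left out the median ran from −0.22 (10 lower and 2 higher, without WT replicate 4) to −0.026 (7 lower and 5 higher, without *Irf1-/-* replicate 2), and 2 to 6 genes had an unadjusted *P* under 0.05. The 3 genes in the main fit were the glycosylase genes *Neil3* (log2 fold change −0.46, adjusted *P* = 0.0991 in limma and 0.0314 in DESeq2), *Tdg* (−0.33, adjusted *P* = 0.112 in limma and 0.0416 in DESeq2) and *Ung* (−0.62, adjusted *P* = 0.189). *Tdg*, which excises the products of TET oxidation, had 2750, 3026 and 2678 normalized counts in WT replicates 2, 3 and 4 and 2135, 2489 and 2124 in the *Irf1-/-* replicates, without overlap. Of 10 methyl-CpG readers, 7 were lower and 3 higher (median −0.046), among them *Mbd3* (log2 fold change −0.26, limma adjusted *P* = 0.155), *Mbd1* (0.19, adjusted *P* = 0.317) and *Zbtb4* (0.32, adjusted *P* = 0.466). The direction of the readers turned with 1 library left out, to 4 lower and 6 higher (median 0.080) without *Irf1-/-* replicate 3. Of 11 tested TET partners and regulators, 3 were lower and 8 higher (median 0.095, and 0.030 without *Irf1-/-* replicate 3), and 0 had an unadjusted *P* under 0.05. The smallest *P* values there belonged to *Sall4* and *Cxxc4*, which had at most 23.9 normalized counts in any library, and to *Gadd45g* (log2 fold change 0.21, limma adjusted *P* = 0.523).

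Promoter sequences of all 8 members were found in RefSeq (GRCm38.p6) as windows of 300 bases, from 250 before to 50 after each start. The IRF core motif AANNGAAA, searched on both strands, occurred in at least 1 window of 26.7% of the 27025 genes with a window and of 0 of the 8 members. The E2F-type motifs TTTCCCGC, TTTCGCGC, TTTGCCGC and TTTGGCGC, searched on both strands after the fold changes were known, occurred in a window of 2.60% of these genes. Of the members only *Dnmt1* had them. Among partners of the methyltransferases they occurred in 3 of 12 genes, *Uhrf1*, *Hells* and *Cdca7*. Among replication and cell cycle genes they occurred in 7 of 23, but not in the called *Top2a* and *Mki67*, and in the other lists in 1 of 19 genes of 2-oxoglutarate supply and use and in 0 of 19 methyl donor genes, 9 base excision genes, 7 readers and 8 TET partners. The median number of CpG sites over all windows was 7 (quartiles 3 and 20). Windows of the members held 17 (*Tet1*), 20 (*Idh2*), 22 (*Tet3*), 23 (*Idh1*), 30 (*Dnmt3b*), 57 (*Tet2*), 18 to 47 (*Dnmt3a*) and 2 to 33 (*Dnmt1*). The windows with E2F-type motifs held 33 in *Dnmt1*, 33 in *Uhrf1*, 34 in *Hells* and 26 in *Cdca7*. Motif shares were not compared among windows of like CpG content. A match of letters is not a binding site, and binding was not analysed here.

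The stretches around the motif upstream of the start are shown for *Dnmt1* and these 3 partners, which were picked with their fold changes known. Each holds 1 of these spellings (TTTCGCGC in *Dnmt1* and *Uhrf1*, TTTCCCGC in *Hells* and *Cdca7*). The same window of *Dnmt1* also holds TTTGGCGC after the start, within chr9:20952574-20952601, which is not shown. Matches upstream of the start also occurred in *Cdc6*, *Cdk1*, *Mcm5*, *Mcm6*, *Mcm7* and *Dlst*, which are not shown either. The motif is in capitals, 5′ to 3′ on the strand of the gene. That of *Dnmt1* is at chr9:20952824-20952853 on the minus strand, and its motif is read on the opposite strand. Those of *Uhrf1* (chr17:56304117-56304146), *Hells* (chr19:38930917-38930946) and *Cdca7* (chr2:72476137-72476166) are on the plus strand, and the motif of *Cdca7* is read on the opposite strand.
Dnmt1: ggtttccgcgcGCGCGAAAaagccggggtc
Uhrf1: cccgagtcgggTTTCGCGCgcccaggcgtc
Hells: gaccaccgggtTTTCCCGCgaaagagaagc
Cdca7: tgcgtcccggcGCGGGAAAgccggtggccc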

How the data were processed

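Groups came from the sample labels. The authors made cDNA with a SMART-Seq v4 kit, prepared Nextera XT libraries and obtained counts with htseq-count after trimming (Trim Galore) and alignment (HISAT2; mm39 in the submitters' processing notes). The deposited signal is the count of a gene divided by 1 size factor per library. All values (100%) were whole multiples of 1 read (within 0.1 read), so reads were recovered for edgeR 4.0.16 and DESeq2 1.42.0. There are no molecular identifiers, so reads are not independent molecules. The main test was limma 3.58.1 (R 4.3.3) with an intensity trend and a pseudocount of 1. Replicates of a genotype differed by more than sampling noise (chi-square per gene at least 16.0). Members, Irf1, called genes of 7 lists (or the 3 smallest *P*) and the 3 most similar genes per member were named, and some genes that this rule covers are not reported here. The members and lists were chosen with earlier results of these data known. Alternatives covered pseudocount, filter, trend, scaling, replicate number, each library left out, tool and threshold. Columns left unused numbered 0. Figures were drawn with matplotlib 3.10.9.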

Additional observations from a re-analysis of the deposited data

How the results depend on the processing

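The count of called members was 0 in the main comparison and in every alternative. With no threshold on the fold change, an added count chosen after seeing the data, members with an adjusted *P* under 0.05 numbered 2 with the replicate block (*Dnmt1* and *Tet1*), 1 without WT replicate 4 and 1 in DESeq2 (*Dnmt1* in both), and 0 in limma otherwise. Whether the replicate numbers pair the mice could not be decided. Correlations of deviations from the group means were −0.094, 0.25 and 0.15 between libraries sharing the numbers 2, 3 and 4. Between libraries of different numbers they ran from −0.33 to 0.25, and 3 mice per genotype are too few to exclude a shared preparation. The replicate block called 219 genes higher and 196 lower, where 167 and 166 were called without it, and 7 list genes instead of 3 (6 of the 7 in the replication and cell cycle list, where 27 of 28 had an adjusted *P* under 0.05 in limma). Without the trend limma called 7 genes higher, 33 lower and 0 list genes. DESeq2, run on 24420 genes without the filter on low counts, called 299 higher, 211 lower and 6 list genes (limma on these genes 161 and 166), and no fold threshold gave 301 higher, 260 lower and 10 list genes. List genes called numbered 5 at a mean of at least 50 and 7 under median centring. With 1 library left out, genes called ranged from 83 to 304 (higher), from 105 to 265 (lower) and from 0 to 16 (list genes). *Dnmt1*, *Dnmt3a*, *Dnmt3b*, *Tet1* and *Idh2* kept their negative sign in every alternative. Signs turned for *Tet2* under median centring (−0.019; −0.12 to 0.12 with 1 library left out), for *Idh1* under quantile normalization (0.015; −0.10 to 0.063 with 1 left out), for *Tet3* (−0.22 to 0.024 with 1 left out) and for the ratio of *Dnmt3a* to *Dnmt3b* (−0.10 to 0.016 with 1 left out), and the cause was not tested.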
